A study of Arabidopsis thaliana with 4 samples.

Results

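The 38 genes described here encode late embryogenesis abundant (LEA) proteins of Arabidopsis thaliana that are not dehydrins. They were chosen by name, as a list of locus codes, with earlier results of these data known. Of the 38 genes, 36 have a row in the deposited files, which hold 30915 rows for 29971 loci, and for the other 2, AT5G53260 and AT5G53270, only sequence features were analysed here. By the usual naming of LEA families, the 36 genes comprised 13 of LEA_4, 4 of the seed maturation protein (SMP) type, 4 of LEA_3, 3 each of LEA_1, LEA_2 and a short form of LEA_4, and 2 each of LEA_5 (the Em proteins), the M10/M17 type and PvLEA18.

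The study profiled whole siliques, the pods that hold the seeds, of wild-type Col-0 plants grown in long days. Siliques of stage 1 were taken at days 0 to 5 after anthesis, those of stage 2 at days 6 to 10, those of stage 3 at days 11 to 15, and those of stage 4 at days 16 to 20. Each age class was sequenced as 1 RNA-seq library, so no difference below has a replicate check, and no test or error can be given. All levels are the authors' FPKM (fragments scaled to transcript length and library size), a level per length.

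LEA proteins are mostly small, hydrophilic and unfolded in water, and they accumulate in seeds as the embryo prepares to dry. Many LEA genes respond to abscisic acid, the hormone of seed maturation and drought, through the transcription factors ABI3 and ABI5, and ABI5 activates the Em genes directly. A second set of LEA genes is expressed in vegetative tissue and answers to cold, drought, oxidative stress or ageing.

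The upstream sequences of the LEA genes are shown for reading beside their timing. The core of the abscisic acid response element, ACGTG, which reads CACGT on the opposite strand, is the sequence to which ABI5 and related bZIP factors bind, and the RY element, CATGCA, which reads TGCATG on the opposite strand, is bound by ABI3 and FUS3. The 7 stretches below are the 250 bases before the annotated transcript start, 5′ to 3′ on the gene's strand, from the RefSeq sequence and annotation of TAIR10.1, with matches to either motif in capitals. They show the Em pair, M10, the LEA_4 gene with the most matches and the LEA_1 gene that was still increasing in stage 4. They also show AT3G02480 and AT5G38760, short LEA_4 genes with opposite timing. AT5G53820, another short LEA_4 gene that fell after stage 1, is not printed and had 2 ACGTG matches. EM1 lies at chr3:19214472-19214721 on the plus strand, EM6 at chr2:16780369-16780618 on the minus strand and M10 at chr2:17209447-17209696 on the plus strand. AT3G53040 lies at chr3:19666498-19666747 and LEA18 at chr2:14863413-14863662, both on the minus strand. AT3G02480 lies at chr3:511970-512219 and AT5G38760 at chr5:15523923-15524172, both on the plus strand.
EM1: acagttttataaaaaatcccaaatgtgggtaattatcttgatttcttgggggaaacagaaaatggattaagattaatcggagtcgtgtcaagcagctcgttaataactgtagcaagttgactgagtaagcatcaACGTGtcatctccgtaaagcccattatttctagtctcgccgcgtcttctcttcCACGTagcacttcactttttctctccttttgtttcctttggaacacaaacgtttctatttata
EM6: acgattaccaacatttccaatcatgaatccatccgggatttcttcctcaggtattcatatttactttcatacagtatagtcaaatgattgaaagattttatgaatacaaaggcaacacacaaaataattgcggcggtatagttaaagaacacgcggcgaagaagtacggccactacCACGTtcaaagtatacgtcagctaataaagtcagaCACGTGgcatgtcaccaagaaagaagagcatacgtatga
M10: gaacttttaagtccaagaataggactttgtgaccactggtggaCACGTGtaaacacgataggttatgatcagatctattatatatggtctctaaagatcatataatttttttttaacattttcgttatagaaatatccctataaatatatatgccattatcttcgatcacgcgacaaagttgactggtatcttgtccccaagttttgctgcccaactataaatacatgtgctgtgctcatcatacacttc
AT3G53040: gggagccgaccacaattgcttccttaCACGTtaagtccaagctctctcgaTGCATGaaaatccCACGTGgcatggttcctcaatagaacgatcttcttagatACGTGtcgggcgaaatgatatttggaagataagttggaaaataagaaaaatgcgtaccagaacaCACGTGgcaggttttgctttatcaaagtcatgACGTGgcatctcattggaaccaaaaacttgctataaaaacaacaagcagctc
LEA18: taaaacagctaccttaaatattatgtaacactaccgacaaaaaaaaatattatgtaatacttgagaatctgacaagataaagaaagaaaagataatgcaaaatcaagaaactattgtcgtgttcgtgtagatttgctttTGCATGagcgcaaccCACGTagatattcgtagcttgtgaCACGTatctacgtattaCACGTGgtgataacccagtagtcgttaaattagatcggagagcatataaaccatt
AT3G02480: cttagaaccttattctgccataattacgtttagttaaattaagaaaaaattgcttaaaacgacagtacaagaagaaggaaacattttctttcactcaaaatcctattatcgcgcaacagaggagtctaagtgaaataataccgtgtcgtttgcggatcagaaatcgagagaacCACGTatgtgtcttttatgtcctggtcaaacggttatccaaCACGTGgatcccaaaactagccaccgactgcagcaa
AT5G38760: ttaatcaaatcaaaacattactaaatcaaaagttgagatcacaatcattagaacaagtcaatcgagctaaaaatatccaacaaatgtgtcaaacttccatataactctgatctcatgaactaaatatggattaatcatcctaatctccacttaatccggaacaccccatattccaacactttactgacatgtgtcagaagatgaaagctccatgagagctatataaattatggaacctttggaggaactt
EM1 had 2 separate ACGTG matches and EM6 had 2, of which 1 in EM6 was the palindrome CACGTG. M10 had a single CACGTG. AT3G53040 had 5 ACGTG matches and 1 RY match, LEA18 had 3 and 1, AT3G02480 had 2 and none, and AT5G38760 had neither motif in this window. A match is a description of the letters and not a measured binding site.

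Whole-silique RNA carried clear signs of its stages. Pollen marker genes (9 with a row) summed to 789, 26.6, 8.47 and 8.81 FPKM over stages 1 to 4, and the oil body genes (5, oleosins of the seed) summed to 19.1, 790, 25541 and 36992 FPKM. The fruit wall genes (7 with a row) summed to 194, 259, 272 and 421 FPKM. Of these sums ADPG1 alone made up 0.913, 8.67, 85.8 and 246 FPKM. The other 6 differed by less than 1 in log2(FPKM + 1) between stages 4 and 1. Of the 9 storage protein genes, among the most abundant seed transcripts, 4 were listed at exactly 0 in stage 3 and 5 in stage 4, so a 0 in these files may be a failed estimate, and no fold is given against one. By the low values of the files, 1 fragment on a 1500-base transcript was worth about 0.0115, 0.0074, 0.0113 and 0.0128 FPKM in stages 1 to 4. Seeds and fruit wall were not separated, and in these bulk libraries more seed cells and more RNA per cell cannot be told apart.

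LEA genes other than dehydrins increased steeply after stage 2. The 36 genes together summed to 711, 1567, 11078 and 16070 FPKM over stages 1 to 4. As a share of the FPKM over all loci of at least 300 bases, this was 0.0745%, 0.227%, 1.21% and 1.83%. A level of 50 FPKM was reached by 4 of the 36 genes in stage 1 and by 3 in stage 2, but by 21 in stage 3 and by 26 in stage 4. How many of all loci reached 50 FPKM in each stage was not computed. At least 1 FPKM was reached by 17, 21, 30 and 30 of the LEA genes over stages 1 to 4. Of all 29971 loci, 17020, 16941, 16366 and 16356 did. Among the 33 genes listed above 0 in all 4 libraries, 5 had their highest value in stage 1, while 2 peaked in stage 2, 7 in stage 3 and 19 in stage 4, or 29 in stage 4 with libraries scaled to equal FPKM sums. Over all 19903 such loci, without that scaling, the highest value was that of stage 1 for 34.4% and of stage 2 for 20.1%. It was that of stage 3 for 20.6% and of stage 4 for 24.9%. With that scaling, 66.4% of all loci were higher in stage 4 than in stage 1 by at least 1 in log2(FPKM + 1). The share of all loci highest in stage 4 was not computed with it.

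**Figure D1:**
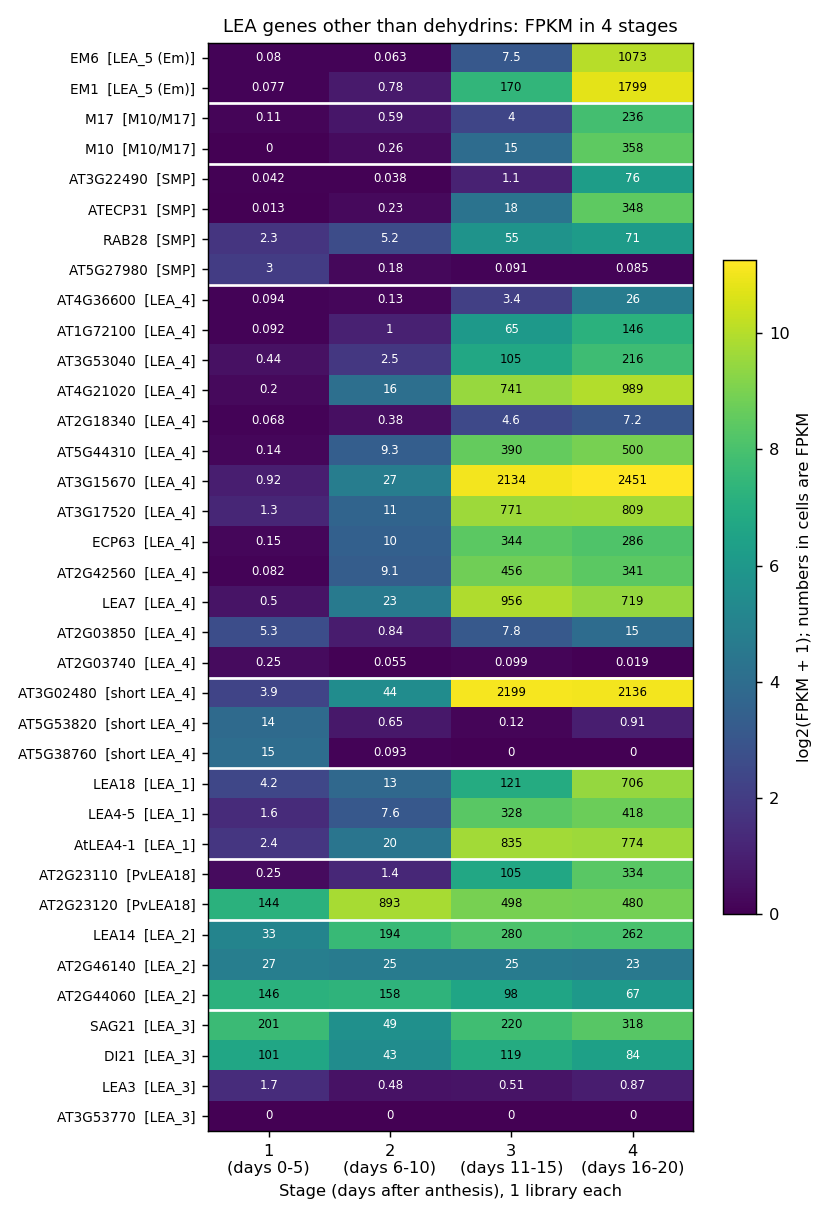
FPKM of the 36 LEA genes (rows, grouped by family) in the 4 stages (columns, 1 library each). Colour is log2(FPKM + 1) and the number in each cell is FPKM. Most LEA_4 and LEA_1 genes are dark in stages 1 and 2 and bright in stages 3 and 4. The Em and M10/M17 genes and a pair of SMP genes are brightest in stage 4. The LEA_2 and LEA_3 genes are bright from stage 1 or dark throughout.

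A gene was counted as having risen or fallen between stages where the change in log2(FPKM + 1) was 1 or more and the larger value reached 1 FPKM. Neighbouring comparisons share a library and are not independent of each other. In stage 2 against stage 1, 14 of the 34 genes listed above 0 in both rose and 6 fell. Of all loci, 9.97% rose and 12.9% fell. With equal FPKM sums 18 of the 34 rose and 2 fell, where 43.0% of all loci rose and 747 of 21368 fell. In stage 3 against stage 2, 26 of 34 rose and 0 fell, where 11.0% of all loci rose and 9.93% fell. In stage 4 against stage 3, 11 of 34 rose and 0 fell, where 4.55% rose and 5.28% fell; with equal FPKM sums 20 rose, where 24.3% of all loci did. In stage 4 against stage 1, 25 of 33 rose and 3 fell, where 18.0% rose and 19.7% fell. The median difference of the LEA genes on the log2(FPKM + 1) scale was 0.80 in the first step, 3.16 in the second and 0.36 in the third, where that of all loci was -0.01, -0.02 and -0.01. The step between stages 2 and 3 was thus the one in which most of these genes rose.

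**Figure D2:**
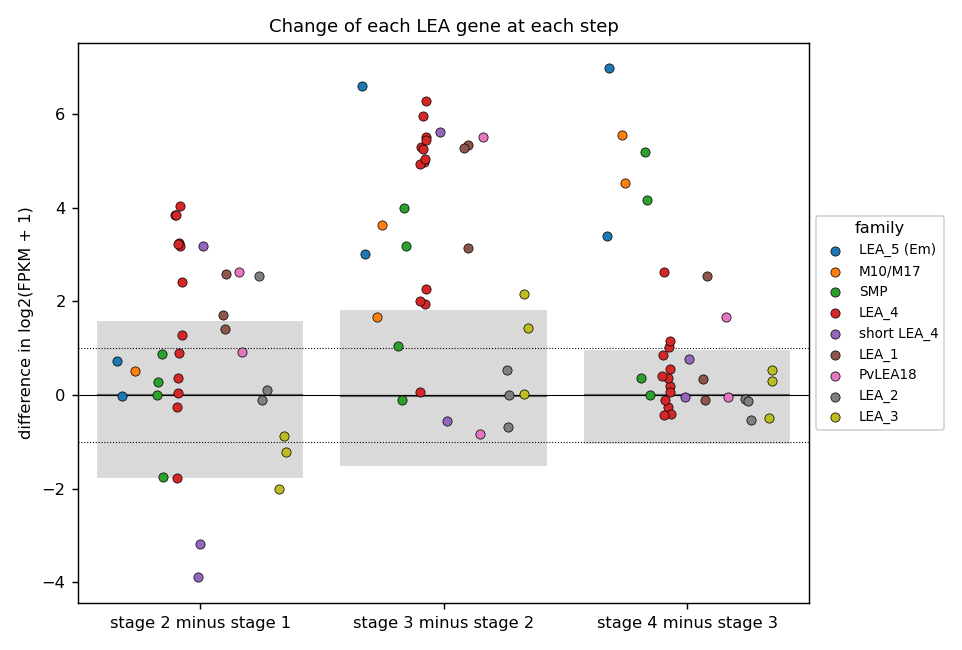
Difference in log2(FPKM + 1) of each LEA gene (points, coloured by family) at each step, later stage minus earlier stage. Grey boxes span the 5th to 95th percentile of all loci, with the median as a line, and dotted lines mark a difference of 1. Most points of the middle step lie above the grey box, and in the last step the Em, M10/M17 and a pair of SMP genes stand highest.

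The rising genes differed in when they stopped rising. In 12 genes a rise in stage 2 over stage 1 was followed by another in stage 3 over stage 2, and 14 genes rose in stage 3 over stage 2 without a called rise before. The share of all loci with either course was not computed. Of the 26 genes that rose in stage 3, 11 rose again in stage 4. These 11 summed to 5.43, 19.8, 617 and 5318 FPKM over stages 1 to 4. A second class of 13 genes, each under 20 FPKM in stage 1, rose in stage 3 and then differed by less than the limit between stages 4 and 3. This class summed to 19.0, 184, 9221 and 9515 FPKM. SAG21 and DI21 took the same 2 steps but had at least 20 FPKM in stage 1 and are not in it.

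The Em genes, whose products are the most hydrophilic LEA proteins and which ABI5 activates, were among the latest. EM1 (AT3G51810) stood at 0.0769, 0.78, 170 and 1799 FPKM over stages 1 to 4. EM6 (AT2G40170) stood at 0.0798, 0.0629, 7.54 and 1073 FPKM. EM1 was therefore already high in stage 3, when EM6 was still low, and both were high only in stage 4. The difference of EM6 in stage 4 against stage 3 was 6.97 on the log2(FPKM + 1) scale, or 142-fold in FPKM, and it ranked 3rd of 20606 loci. EM1 differed by 3.39 in stage 4 against stage 3, or 10.6-fold, while its larger step was stage 3 against stage 2, with 6.59, rank 7 of 20980 loci. The values of EM6 in stages 1 and 2 correspond to about 2.84 and 3.48 fragments, so its order between those stages is not readable at this depth.

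M17 (AT2G41260) and M10 (AT2G41280) are neighbouring genes on chromosome 2, with 1998 bases and no other protein-coding gene between them. M17 is known as a gene expressed when seeds acquire desiccation tolerance. M17 stood at 0.107, 0.588, 4.05 and 236 FPKM over stages 1 to 4. M10 was listed at 0 in stage 1 and stood at 0.256, 14.6 and 358 FPKM in stages 2 to 4. Both held nearly all of their FPKM in stage 4, 98.0% of the sum over 4 stages for M17 and 96.0% for M10. In stage 4 against stage 3, M17 was 58.3-fold higher and M10 24.5-fold higher in FPKM.

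Of the 4 SMP genes analysed, 2 joined this late group. AT3G22490 stood at 0.042, 0.0379, 1.14 and 76.2 FPKM, and its neighbour ATECP31 (AT3G22500), related to an embryonic cell protein of carrot, stood at 0.0126, 0.228, 18.5 and 348 FPKM. Their proteins are 79.4% identical and the genes lie 781 bases apart. ATECP31 was the higher of the pair in stages 2 to 4. RAB28 (AT1G03120), which responds to abscisic acid, rose earlier and levelled off, with 2.35, 5.17, 54.9 and 71.1 FPKM. AT5G27980 had the opposite course, with 2.96 FPKM in stage 1 and 0.179, 0.0909 and 0.0854 FPKM in stages 2 to 4. AT5G27980 overlaps a neighbouring gene by 218 bases and AT3G22490 overlaps one by 25 bases, and the library kit does not mark strand, so their reads cannot be fully told apart from those of the neighbours.

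Among the 2731 single-gene loci with at least 50 FPKM in stage 4 and a value above 0 in stage 3, 24 (0.879%) were at least 10-fold higher in stage 4 than in stage 3. The LEA genes here made up 26 of the 2731 loci and 6 of the 24, namely EM6, AT3G22490, M17, M10, ATECP31 and EM1. All 6 were under 1 FPKM in both stage 1 and stage 2.

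**Figure D3:**
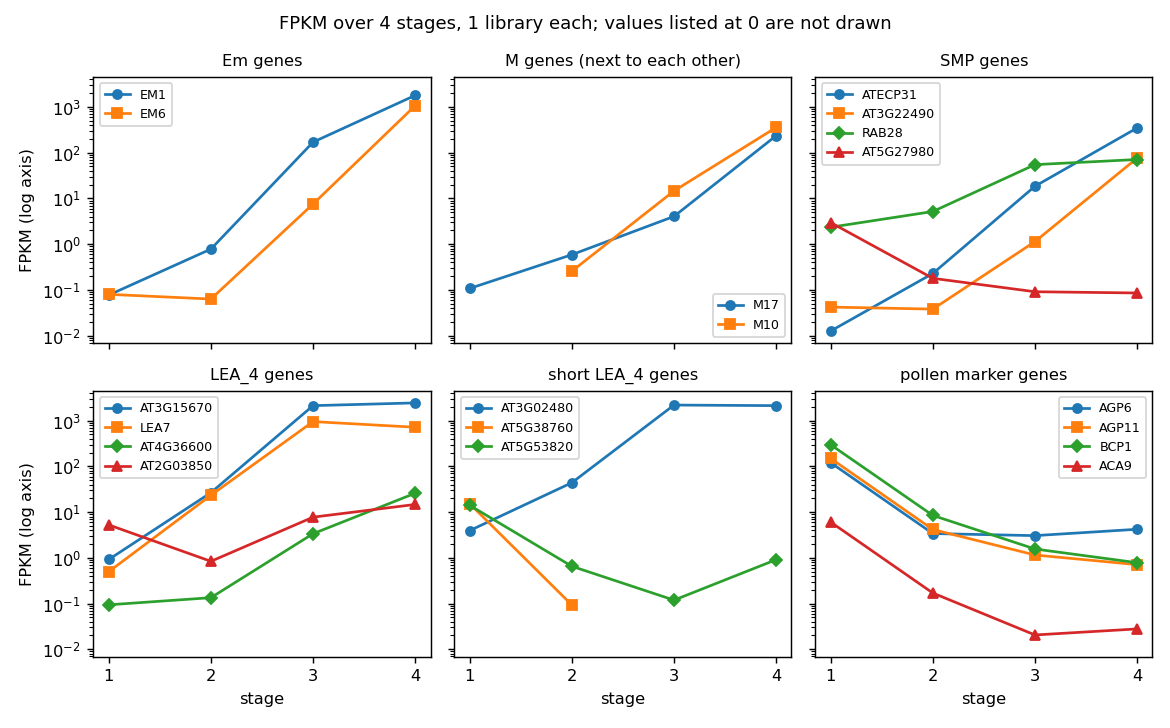
FPKM on a log axis over the 4 stages (1 library each) for selected LEA genes by family and for 4 pollen marker genes. EM6 trails EM1 in stage 3 (7.54 against 170 FPKM) and nears it in stage 4, and AT5G38760 and AT5G53820 fall after stage 1 as the pollen markers do, while AT3G02480 reaches 2199 FPKM in stage 3.

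The LEA_4 family, proteins with repeats of 11 residues that form helices on drying, supplied most of the stage 3 increase. Its 13 genes summed to 9.54, 111, 5979 and 6504 FPKM. In stage 3 against stage 2, 12 of 13 rose, and in stage 4 against stage 3 only 3 did. AT3G15670, the highest of the family, stood at 0.92, 26.6, 2134 and 2451 FPKM, and its difference of 6.27 in stage 3 against stage 2 ranked 11th of 20980 loci. LEA7 (AT1G52690), its close relative with 56.4% identical residues, stood at 0.498, 23.4, 956 and 719 FPKM. The pair thus rose together, and neither changed by the limit between stages 4 and 3. LEA7 overlaps a neighbouring gene by 297 bases.

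AT3G17520 followed the same course with 1.34, 11.5, 771 and 809 FPKM, as did AT4G21020 with 0.204, 16.1, 741 and 989 FPKM. AT5G44310 stood at 0.142, 9.27, 390 and 500 FPKM, and AT2G42560 at 0.0823, 9.12, 456 and 341 FPKM. These 4 genes had each risen in stage 2 and again in stage 3 and then stayed within the limit. ECP63 (AT2G36640), an embryonic cell protein gene, stood at 0.148, 9.95, 344 and 286 FPKM. Its closest relative in the list, AT3G53040 with 62.4% identical residues, was slower, with 0.442, 2.5, 105 and 216 FPKM, and was among the 2 genes called higher at all 3 steps. AT1G72100 stood at 0.092, 1.03, 65.3 and 146 FPKM and was also still rising in stage 4.

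The low LEA_4 genes were AT4G36600, with 0.0938, 0.134, 3.37 and 25.9 FPKM, and AT2G18340, with 0.0677, 0.38, 4.57 and 7.15 FPKM. AT4G36600 rose in stage 4 against stage 3 by 2.62 on the log2(FPKM + 1) scale, and AT2G18340 differed by 0.55, under the limit. AT2G03850 had a different course, with 5.25, 0.838, 7.76 and 14.7 FPKM over the 4 stages, a fall followed by a rise. With equal FPKM sums the difference in stage 2 against stage 1 was -0.81, under the limit. With equal sums over loci of at least 300 bases it was -1.48. AT2G03740 is a relative of AT2G03850 with 68.9% identical residues and 12 protein-coding genes between them on chromosome 2. This relative stayed under 1 FPKM throughout, at 0.254, 0.055, 0.0989 and 0.0189 FPKM.

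The LEA_1 genes, encoding small proteins of seeds and stressed tissues, all rose in stage 2 and in stage 3. AtLEA4-1 (AT1G32560) stood at 2.45, 19.7, 835 and 774 FPKM and LEA4-5 (AT5G06760), which is also known from water-stressed plants, at 1.61, 7.55, 328 and 418 FPKM. LEA18 (AT2G35300, also called LEA4-2) stood at 4.23, 12.9, 121 and 706 FPKM. LEA18 was the highest of the 3 in stage 1 and the lowest in stage 3, and it alone rose again in stage 4, by 2.53 on the log2(FPKM + 1) scale or 5.83-fold in FPKM.

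The short LEA_4 genes split in timing in spite of their likeness. AT3G02480 stood at 3.94, 44.0, 2199 and 2136 FPKM and was the highest of all 36 genes in stage 3, where it ranked 30th of all loci. AT5G38760 stood at 15.2 and 0.0929 FPKM in stages 1 and 2 and was listed at 0 in stages 3 and 4. AT5G53820 stood at 14.1, 0.653, 0.119 and 0.912 FPKM. In stage 2 against stage 1, AT3G02480 rose by 3.19 on the log2(FPKM + 1) scale, AT5G38760 fell by 3.89 and AT5G53820 fell by 3.19. AT3G02480 and AT5G38760 have 65.2% identical residues, and AT5G38760 and AT5G53820 have 71.6%.

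Pollen markers fell in the same step as these last 2 genes. All 8 pollen markers listed above 0 in both libraries were lower in stage 2 than in stage 1, with a median difference of -4.08, and the highest of them, BCP1 and AGP11, stood at 298, 8.46, 1.56 and 0.782 FPKM and at 149, 4.16, 1.15 and 0.708 FPKM. The pollen markers summed to 789 FPKM in stage 1 and the highest single value in later stages was 8.46 FPKM, and MGH3 and TIP1;3 were each listed at 0 in 2 later libraries. AT5G27980 fell in that step too, by 1.75, but with equal FPKM sums the difference was -0.94, under the limit. With equal sums over loci of at least 300 bases it was -1.58. The part of pollen RNA in these falls was not tested.

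The PvLEA18 genes, AT2G23110 and AT2G23120, are neighbours 475 bases apart on chromosome 2, with 49.0% identical residues. AT2G23110 stood at 0.249, 1.35, 105 and 334 FPKM, and AT2G23120 at 144, 893, 498 and 480 FPKM. AT2G23120 was the highest LEA gene here in stage 2, with 57.0% of the FPKM of all 36 genes, and AT2G23110 was still rising in stage 4. Reads of AT2G23120 cannot be fully told apart from those of a gene that overlaps it by 144 bases.

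The LEA_2 genes encode folded, less hydrophilic proteins that differ from the other families. LEA14 (AT1G01470), which is induced by wounding, light and drought, stood at 32.6, 194, 280 and 262 FPKM, and rose in stage 2 against stage 1 by 2.54 on the log2(FPKM + 1) scale with no later call. AT2G46140, with 57.2% of its aligned residues identical to LEA14, was nearly level at 27.0, 24.8, 24.9 and 22.6 FPKM. AT2G44060 stood at 146, 158, 97.5 and 67.5 FPKM and fell by 1.11 in stage 4 against stage 1, with no single step at the limit. With libraries scaled to equal FPKM sums this turned to a difference of 1.11 upwards. With equal sums over loci of at least 300 bases the difference was -0.985, just under the limit.

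The LEA_3 genes encode small proteins of mitochondria or plastids, and 3 of the 4 had their lowest value in stage 2, of which 2 were called lower there than in stage 1. SAG21 (AT4G02380), induced in ageing and oxidatively stressed leaves, stood at 201, 48.9, 220 and 318 FPKM. DI21 (AT4G15910), named for its induction by drought, stood at 101, 43.4, 119 and 84.3 FPKM. Both fell in stage 2 against stage 1, SAG21 by 2.02 and DI21 by 1.21 on the log2(FPKM + 1) scale, and both rose in stage 3 against stage 2, by 2.15 and 1.44. With equal FPKM sums neither fall reached the limit, with differences of -0.78 for SAG21 and 0.022 for DI21, and with equal sums over loci of at least 300 bases that of DI21 was -0.75. LEA3 (AT1G02820) stood at 1.73, 0.482, 0.511 and 0.869 FPKM with no call, and AT3G53770 was listed at 0 in all 4 libraries. SAG21 overlaps an annotated microRNA gene by 180 bases.

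Some genes of senescence fell in stage 2 as well. The 8 senescence genes summed to 984, 127, 926 and 920 FPKM, and SAG12 made up most of the sum in stage 1. In stage 2 against stage 1, 4 of 8 fell and 0 rose, and in stage 3 against stage 2, 7 of 8 rose and 1 fell. SAG12, a cysteine protease of ageing leaves, stood at 719, 4.48, 99.4 and 192 FPKM, and SAG13 at 34.5, 11.8, 210 and 261 FPKM. The part of ageing tissue in the values of SAG21 and DI21 was not tested.

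Timing can be put on 1 scale by the mean stage of a gene weighted by its FPKM, which is 1 if all of its FPKM is in stage 1 and 4 if all is in stage 4. Over the 18947 loci that reached 1 FPKM, the 5th percentile was 1.38, the median 2.48 and the 95th percentile 3.27. Over the 34 LEA genes that did, the lowest was 1.01 (AT5G38760, with its values of 0 in stages 3 and 4 taken as listed), the next 1.19 (AT5G27980), the median 3.49 and the highest 3.99 (EM6). The 11 genes still rising in stage 4 lay between 3.66 and 3.99. The 13 genes of the second class, which rose in stage 3 and then levelled off, lay between 3.12 and 3.56. The 6 genes with at least 20 FPKM already in stage 1, all of LEA_2, LEA_3 or PvLEA18, lay between 2.18 and 3.0.

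Dehydrins, the LEA family left out of the list, had a median of 3.0 over 10 genes on this scale and a range of 2.30 to 3.95. Their summed FPKM was 1113, 2947, 7713 and 7624 over stages 1 to 4. In stage 2 against stage 1, 8 of 10 dehydrins rose and 0 fell, in stage 3 against stage 2, 6 rose and 2 fell, and in stage 4 against stage 3, 2 rose and 2 fell. RAB18, the seed and drought dehydrin, stood at 6.42, 54.0, 2731 and 3199 FPKM. AT4G39130 stood at 0.146, 0.0756, 2.05 and 47.6 FPKM, the only dehydrin with a weighted mean stage in the range of the Em genes. COR47, induced by cold, stood at 150, 402, 198 and 106 FPKM, highest in stage 2. No LEA_4 gene had that course, but AT2G23120 and AT2G44060 of the LEA list were also highest in stage 2.

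**Figure D4:**
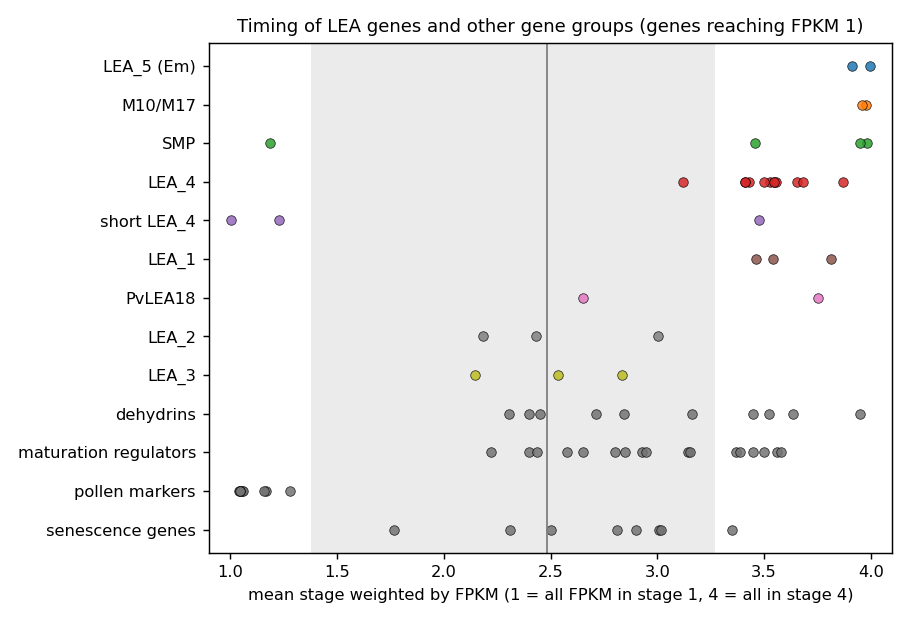
Mean stage weighted by FPKM (x axis) of each LEA gene reaching 1 FPKM, by family, with dehydrins, maturation regulators, pollen markers and senescence genes in grey below. The grey band spans the 5th to 95th percentile of all loci reaching 1 FPKM, 1.38 to 3.27, and the line is their median, 2.48. The Em and M10/M17 genes lie at the right edge and the LEA_2 and LEA_3 genes within the band.

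Regulators of maturation differed in when they rose. Of the 17 regulators with a row, 9 rose and 0 fell in stage 2 against stage 1, 7 rose and 1 fell in stage 3 against stage 2, and 0 rose and 2 fell in stage 4 against stage 3. ABI3 stood at 0.0255, 7.82, 74.1 and 81.1 FPKM and FUS3 at 0.152, 22.1, 112 and 114 FPKM. ABI5 stood at 11.1, 6.83, 29.8 and 42.1 FPKM, and was called higher only in stage 3 against stage 2 among the 3 steps. EEL, a bZIP factor that competes with ABI5 at the EM1 promoter, stood at 1.17, 22.1, 260 and 331 FPKM, and DPBF2, also called bZIP67, at 0.0431, 5.30, 47.9 and 80.1 FPKM. DOG1, the dormancy gene, stood at 0.0544, 1.97, 79.3 and 117 FPKM. LEC1 and LEC2, which act early in the embryo, stood at 0.489, 78.6, 31.6 and 8.00 FPKM and at 0.175, 9.07, 6.85 and 1.84 FPKM. In stage 4 against stage 3, EM6 was 142-fold higher in FPKM, while ABI3, ABI5, EEL and DPBF2 each differed by less than the limit.

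The upstream windows of the LEA genes held the ACGTG core more often than promoters in general. Of the 38 windows of 250 bases, which include the 2 genes without a row, 29 (76.3%) had at least 1 match, where 23.1% of 27443 promoters of the same length did. At least 2 separate matches were found in 22 windows (57.9%), where 5.04% of all promoters had as many. CACGTG, which contains ACGTG on both strands and was counted as 1 site, was found in 20 (52.6%), where 6.54% of all promoters had it. CATGCA was found in 5 windows (13.2%), where 8.37% of all promoters had it.

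Matches were spread unevenly over the timing classes. Of the 25 genes that rose in stage 4 against stage 1, 22 had ACGTG, 19 had at least 2 separate matches and 5 had CATGCA. Of the other 11 genes with a row, 5 had ACGTG, 2 had at least 2 matches and none had CATGCA; M10, with no readable fold against its 0 in stage 1, is among these 11. Genes in both groups differed from the majority of their group, and a role of the motifs in timing was not tested. M17 and ATECP31, both of the latest class, had no ACGTG in the window, and ATECP31 had 1 RY match. AT2G23120, which rose in stage 4 against stage 1, had neither motif. AT5G53820, which fell after stage 1, had 2 ACGTG matches, whereas its relative AT5G38760 had none, as the printed sequence shows. EM1 and EM6, with unlike values in stage 3, had 2 ACGTG matches each.

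**Figure D5:**
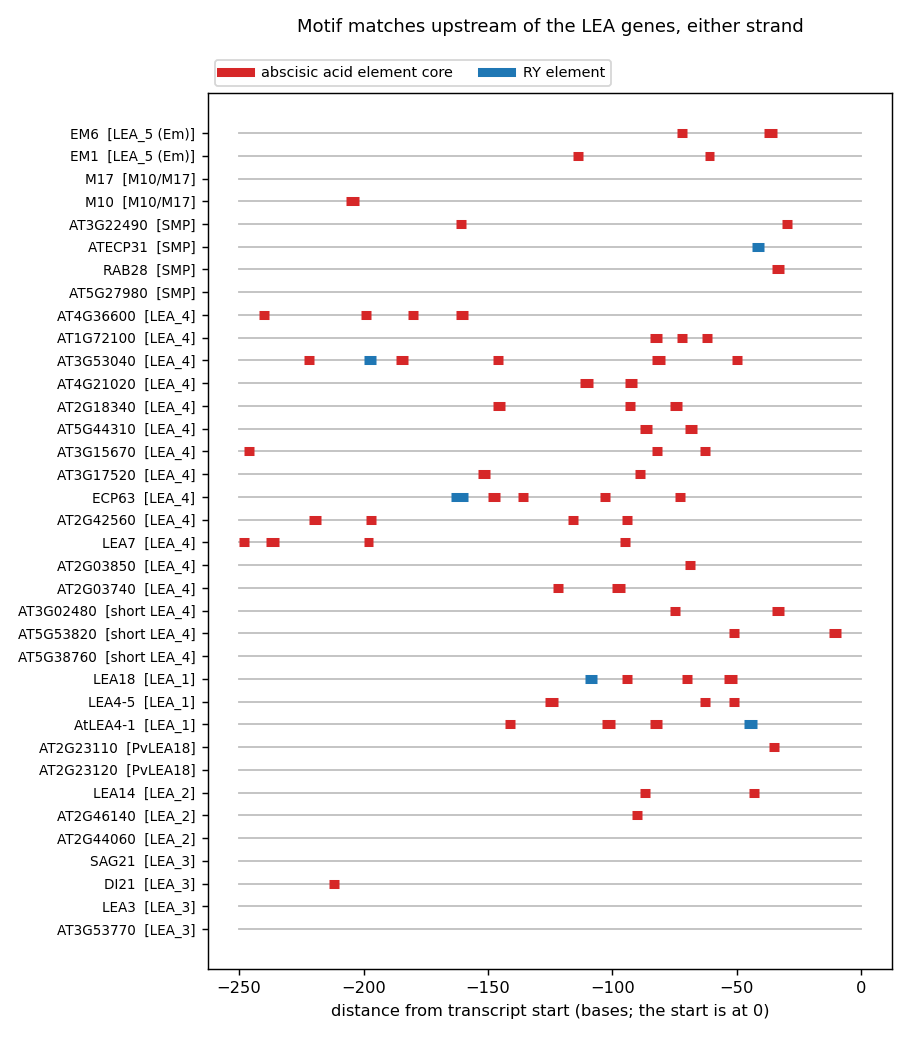
Matches to the abscisic acid element core (red) and the RY element (blue) on either strand in the window before the transcript start of the 36 LEA genes with a row, with distance from the start in bases on the x axis. Apart from AT2G03850 with 1, the LEA_4 and LEA_1 genes carry several red marks each, AT3G53040 the most with 5. ATECP31 carries a blue mark only. M17, AT5G27980, AT5G38760, AT2G44060, AT2G23120, SAG21, LEA3 and AT3G53770 carry no mark of either colour.

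Many of the encoded proteins share features. The list was made by protein family, so the protein features are not independent of it. These were computed from the RefSeq coding sequences. The median mean hydropathy of the 38 proteins on the Kyte-Doolittle scale, where lower is more hydrophilic, was -0.87, against -0.30 over 27325 proteins, and 16 of the 38 were under -1, where 3.65% of all proteins were. No cysteine was present in 22 of 38, where 5.95% of all proteins had none. At most 1 intron was annotated in 28 of 38 genes, where 36.8% of all genes had so few. EM1 encodes 152 residues and had a mean hydropathy of -1.47, and EM6 encodes 92 residues and had -1.41. EM1 carries tandem copies of the Em motif: 53.0% of its residues were identical to the residue 20 positions on, while EM6 had 15.3%. In the LEA_4 protein AT2G18340, 41.3% of residues were identical to the residue 11 positions on. This was the highest share of that family, and the lowest was 12.2% in AT2G03850. LEA14 and AT2G46140, the folded LEA_2 proteins, had mean hydropathies of 0.06 and 0.12. M10 was near 0 as well, with -0.01.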

How the data were processed

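Siliques of 4 age classes were measured as 1 RNA-seq library each. Per the submitters' processing notes, TopHat, Cufflinks and Cuffdiff were used with the TAIR10 build; which versions is not given in the sources used here. Values in the deposited files are the authors' FPKM per locus. Stages follow the developmental stage labels; day limits in the growth text differ for some stages and were not used. Per the labels, libraries were made with a TruSeq RNA kit, which does not mark strand.

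The LEA genes, the other gene lists and the counting rule were chosen with earlier results of these data known. Count tests need counts and were not used on FPKM. Rows were reduced to 29971 loci, and a locus was called where log2(FPKM + 1) differed by at least 1 with at least 1 FPKM in the higher library, leaving out values listed at 0. Such a difference understates the change of low genes. Named genes are all LEA genes analysed, the main maturation regulators, dehydrins, and up to 2 of the highest genes of other lists. Of the dehydrins, RAB18, COR47 and AT4G39130 were picked after their values were seen.

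Depth was estimated from the steps between low FPKM values of 2598 loci; 70.4% to 78.9% of the low values lay within 0.2 of a whole fragment when transcript lengths were taken 180 bases shorter. RefSeq coordinates (TAIR10.1) were used for promoters, introns and translated coding sequences; 28733 single-gene loci were found there by identifier and 28732 overlapped the same gene. Family names were given from general knowledge of LEA proteins. Pairwise identity came from global alignments. Python 3.11.15, numpy 2.4.6, pandas 2.3.3 and Biopython 1.88 were used. Alternatives were other pseudocounts, FPKM minimums, fold limits, treatment of values at 0 and scalings.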

Additional observations from a re-analysis of the deposited data

How the results depend on the processing

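With 1 library per stage, no replicate could be left out. No paired analysis was possible because every stage has 1 library. With libraries scaled to equal FPKM sums, 20 LEA genes rather than 11 were higher in stage 4 against stage 3 and 29 rather than 19 were highest in stage 4, while 2 rather than 6 were lower in stage 2 against stage 1 and 1 rather than 3 in stage 4 against stage 1. That scaling moved the median of all loci by 0.85, 0.06, 0.68 and 1.69 (log2) in the stage 2 against 1, 3 against 2, 4 against 3 and 4 against 1 comparisons, so that 43.0%, 13.2%, 24.3% and 66.4% of all loci were called higher. It turned AT2G44060 in stage 4 against stage 1 to 1.11 and DI21 in stage 2 against stage 1 to 0.022. With equal sums over loci of at least 300 bases, 2 LEA genes rather than 0 were lower in stage 3 against stage 2. With a limit of 4-fold, 3 were lower in stage 2 against stage 1 and 1 in stage 4 against stage 1. The other 78 recomputed counts stayed within 1.5 times. Values under about 0.1 FPKM rest on few fragments, and counting error alone can move them.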

Other observations

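Genes outside the LEA list shared the latest increase. Of the 24 single-gene loci with at least 50 FPKM in stage 4 that were at least 10-fold higher there than in stage 3, 18 were not on the LEA list, and those named here were chosen after their values were seen. The defensin-like gene LCR67 stood at 0.546 FPKM in stage 1, 5.25 in stage 3 and 3027 in stage 4, and was listed at 0 in stage 2. The small heat shock protein genes HSP17.6A and HSP17.4 stood at 0.252, 3.98, 2.75 and 834 FPKM and at 0.952, 5.33, 31.2 and 789 FPKM over stages 1 to 4. NSP2, a nitrile specifier protein gene of glucosinolate breakdown, stood at 0.0554, 0.0166, 77.1 and 957 FPKM.

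Of 8 genes known for induction by cold and abscisic acid, 4 rose and 4 fell in stage 3 against stage 2. KIN2, the highest, stood at 462, 385, 798 and 981 FPKM, and RD20, a caleosin gene, at 201, 163, 392 and 658 FPKM. Reads of KIN2 and its near-identical neighbour KIN1 cannot be fully told apart.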
